A study of Homo sapiens with 4 samples.

Results

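Receptor tyrosine kinases are surface proteins that bind a growth factor outside the cell and phosphorylate tyrosines inside it, and this report follows the RNA of 10 of them in HGC-27, a line of human gastric cancer cells, with and without the peptide GLUP. The 10 were AXL, TYRO3, MERTK, EGFR, ERBB2, ERBB3, MET, FGFR2, IGF1R and EPHA2. They were found by gene symbol after the Ensembl identifiers of the deposited table were matched to names, and all 10 were present among 62443 genes. The other 48 human receptor tyrosine kinases were measured beside them as context, 58 in all. RNA-seq was made from 4 libraries: 2 of cells given GLUP and 2 controls (Con), which the labels give as untreated and the study's methods as given stocking buffer. GLUP is a cyclic linker peptide engineered in the study to join molecules of the transcription factor TEAD4, and it was used at 10 μg/ml, for 12 h in the study's results and for 48 h in its methods. Both groups were the same cell line grown in medium with serum, and no gene was altered in either. The study's methods speak of biological replicates, and the labels do not say what set the 2 of a group apart.

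Binding of a ligand pairs these receptors, and the phosphorylated tails then recruit adaptors that switch on RAS and ERK, PI3-kinase and AKT. AXL, TYRO3 and MERTK form the TAM family, whose ligands are GAS6 and protein S (PROS1). EGFR, ERBB2 and ERBB3 belong to the epidermal growth factor receptor family, MET binds hepatocyte growth factor, FGFR2 binds fibroblast growth factors, IGF1R binds insulin-like growth factors and EPHA2 binds ephrin-A ligands on neighbouring cells. ERBB2, MET and FGFR2 are amplified in subsets of gastric cancer. AXL is a known target gene of YAP and TEAD, and the study named it as such a gene in these same libraries, so its direction is not independent evidence here. The question was which of the receptors HGC-27 cells express and whether others were lower in the GLUP libraries together with AXL.

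The bases before the start sites of AXL and TYRO3 are shown because these were the TAM receptors whose GLUP and control libraries did not overlap, in opposite directions. Each run is 250 bases on the plus strand, 5′ to 3′, from the RefSeq promoter table (GRCh38.p14). Capitals mark letters that match a searched motif on either strand. For TEAD this was GGAATG or its reverse complement CATTCC. The AP-1 motif was TGANTCA, which reads alike on both strands. For SP1 it was GGGCGG or its reverse complement CCGCCC, and no matches of different motifs overlapped here. Each run was found once in GRCh37: AXL window 1 at chr19:41724878-41725127, directly before the gene, AXL window 2 at chr19:41732410-41732659, in an intron of AXL, and TYRO3 window 1 at chr15:41851160-41851409, within the TYRO3 gene but in no exon.
AXL window 1: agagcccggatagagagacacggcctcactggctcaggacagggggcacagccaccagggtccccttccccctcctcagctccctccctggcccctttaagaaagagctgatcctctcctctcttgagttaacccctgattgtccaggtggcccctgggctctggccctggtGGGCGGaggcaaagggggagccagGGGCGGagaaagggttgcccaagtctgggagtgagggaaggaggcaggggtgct
AXL window 2: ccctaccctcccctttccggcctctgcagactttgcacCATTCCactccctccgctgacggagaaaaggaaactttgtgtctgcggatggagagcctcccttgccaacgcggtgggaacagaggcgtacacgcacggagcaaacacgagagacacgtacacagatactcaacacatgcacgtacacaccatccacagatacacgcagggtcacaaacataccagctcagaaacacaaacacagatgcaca
TYRO3 window 1: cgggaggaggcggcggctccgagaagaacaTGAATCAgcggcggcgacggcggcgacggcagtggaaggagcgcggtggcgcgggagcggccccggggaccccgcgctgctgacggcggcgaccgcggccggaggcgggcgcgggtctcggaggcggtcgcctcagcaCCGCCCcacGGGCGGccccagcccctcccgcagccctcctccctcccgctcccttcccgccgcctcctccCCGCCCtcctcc

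The first AXL window held the SP1 letters at positions -78 and -54 from the first transcribed base and no TEAD or AP-1 letters. The second AXL window, 7532 bases further on, held the TEAD letters on the minus strand at -212. In TYRO3 window 1 the AP-1 letters lay at -220 and the SP1 letters at 3 places, with none for TEAD, and a second TYRO3 window held none of the motifs. Windows were found for 9 of the 10 receptors, not for ERBB3. The TEAD letters were in 5 of the 16 receptor windows, of 4 receptors (AXL, EPHA2, EGFR and FGFR2), against 11.9% of all 35116 windows searched. AP-1 letters were in 3 of the 16, against 6.57% of all windows, and SP1 letters in 9 of the 16, against 42.6%. A match describes the sequence and is not a binding site.

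AXL was the most abundant of the 58 receptor tyrosine kinases in every library, and most of the other receptors were close to 0. Values are FPKM, mapped fragments scaled to transcript length and library size, a level per length that can be set side by side between genes. AXL, at chr19:41725128-41767671 (GRCh37), stood at 19.3 FPKM in control 1 and 21.9 FPKM in control 2, against 6.35 FPKM in GLUP 1 and 5.75 FPKM in GLUP 2. All 4 values were above those of any other receptor in the same library. It ranked 1619 among all genes by its control mean and 2691 by its GLUP mean. Among the other 9 receptors no mean over the 4 libraries reached 1 FPKM, although 9 of the 10 were above 0 in every library.

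The next receptors by mean FPKM over the 4 libraries were DDR2 (4.85), a collagen receptor, ROR2 (1.80), a WNT5A receptor, and the insulin receptor INSR (1.78). TYRO3 (0.879), ERBB2 (0.743) and MET (0.670) followed. AXL and DDR2 did not overlap in either group, the highest DDR2 value being 6.05 FPKM in the controls and 3.86 FPKM with GLUP. With the groups pooled, ROR2 and INSR overlapped, as did TYRO3, ERBB2 and MET, so neither order holds over both groups. Within the GLUP group both ROR2 values lay above those of INSR, and both TYRO3 values above those of ERBB2 and MET. In the controls ROR2 and INSR overlapped, and both TYRO3 values lay below those of MET. In 51 of the 58 receptors no library reached 1 FPKM. There were 8 listed at 0 in all libraries, MST1R, RET and ALK among them.

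AXL supplied 51.4% and 52.0% of the summed FPKM of the 58 receptors in the controls, and 27.0% and 27.8% in the GLUP libraries. The sum itself was 37.4 and 42.1 FPKM in the controls and 23.5 and 20.7 FPKM with GLUP. Without AXL the other 57 summed to 18.2 and 20.2 FPKM in the controls and to 17.2 and 14.9 FPKM with GLUP. The sum of control 2 includes INSR at 4.99 FPKM, which was at 0.987 FPKM in control 1 and at 0.589 and 0.559 FPKM with GLUP. A shared lowering of the 57 cannot be read from these sums. AXL was thus 3.18 and 3.80 times the next receptor, DDR2, in the controls, and 1.64 and 1.54 times with GLUP.

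**Figure D1:**
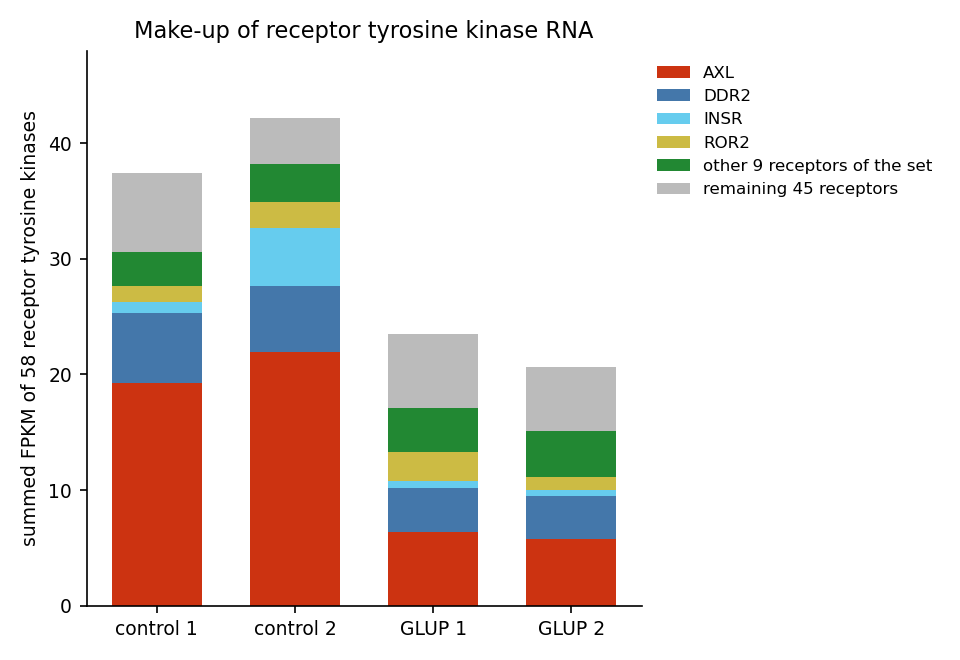
Stacked bars of summed FPKM (y axis, from 0) of the 58 receptor tyrosine kinases in each of the 4 libraries (x axis), split into AXL, DDR2, INSR, ROR2, the other 9 receptors of the set and the remaining 45. The AXL segment goes from 19.3 and 21.9 FPKM in the controls to 6.35 and 5.75 FPKM with GLUP, and the INSR segment is tallest in control 2, at 4.99 FPKM.

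Markers of gastric mucosa were absent or near 0 in both groups, and the epithelial and mesenchymal markers were mixed. The epithelial adhesion genes EPCAM and CDH1 did not exceed 0.124 and 0.0799 FPKM in any library, whereas keratins KRT8, KRT18 and KRT19 lay between 0.764 and 2.25 FPKM. KRT8, KRT18 and KRT19 lay higher in both GLUP libraries (log2 fold changes of 0.51, 0.57 and 0.29, limma unadjusted p 0.0871, 0.0613 and 0.254). So did 17.5% of genes averaging 1 FPKM or more, and with the GC trend removed the changes were 0.21, 0.30 and -0.24. EPCAM and CDH1 lay lower in both GLUP libraries, as did 26.5% of all genes above 0. CDH1 was at 0.0687 and 0.0799 FPKM in the controls and at 0 in both GLUP libraries (limma unadjusted p 0.0167 in the fit to all genes above 0). Of the mesenchymal genes, the filament gene VIM lay between 293.3 and 387.2 FPKM, and the cadherin CDH2 did not exceed 0.0508 FPKM. The matrix gene FN1 was at 1.15 and 3.25 FPKM in the controls and at 0.655 and 0.671 FPKM with GLUP (log2 fold change of -0.86, limma unadjusted p 0.0578). ZEB1, a repressor of epithelial genes, was at 7.05 and 19.2 FPKM in the controls and at 2.88 and 2.92 FPKM with GLUP, a log2 fold change of -1.71 (limma unadjusted p 0.0126, Benjamini-Hochberg adjusted p 0.104). The ZEB1 change was -0.95 with the GC trend removed, where it was no longer called, and -1.05 without control 2, and its part in the AXL result was not tested. Of the gastric mucosa markers MUC6, TFF1, TFF2 and GKN1 were at 0 throughout, and MUC5AC and CLDN18 did not exceed 0.0630 FPKM. Of 10 markers of other cells found in the table, the summed level was between 97.6 and 105.2 FPKM in every library, mostly from DCN and LUM, matrix genes of fibroblasts. DCN lay lower in both GLUP libraries (26.47 and 41.35 FPKM against 20.07 and 22.25 FPKM), as did 49.7% of genes averaging 1 FPKM or more. COL1A1 lay higher in both (2.967 and 3.644 FPKM against 6.905 and 4.417 FPKM), as did 17.5% of those genes. With the GC trend removed DCN changed by 0.15 and COL1A1 by 0.09. LUM overlapped, and so did COL1A2, at 0.246 to 0.443 FPKM. The leukocyte gene CD3E and the endothelial gene CDH5 were at 0 in all libraries, and PTPRC did not exceed 0.0394 FPKM. The leukocyte gene LYZ reached 0.250 FPKM in control 2, and CD14 and VWF did not exceed 0.0147 and 0.0045 FPKM. In bulk RNA fewer cells expressing a gene and less RNA per cell cannot be told apart.

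Several properties of the libraries moved with the groups. The libraries correlated across genes with r = 0.986 between the GLUP pair and r = 0.933 between the controls, and control 2 lay farthest from the GLUP libraries (r = 0.873 and 0.887, across genes, which are not independent). Control 1 correlated with the GLUP libraries at r = 0.952 and 0.957, so it was closer to both of them than to control 2. Over 7588 genes tested the log2 fold change had a median of -0.36, whereas it was -0.02 over all genes above 0 in any library, and the AXL change is also given relative to the first of these. The fold change rose with the GC content of a gene's longest transcript, with a median of -0.78 in the lowest of 5 equal bins of genes by GC and 0.44 in the highest (Spearman's rho 0.58 across genes). The part of this trend in the results below was not tested beyond the values given with it removed. Read depth is not in the table.

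AXL RNA was lower with GLUP. Its mean was 20.6 ± 1.88 FPKM (SD, n = 2) in the controls and 6.05 ± 0.428 FPKM (SD, n = 2) with GLUP, a ratio of 0.294, and both GLUP libraries lay below both controls, as they did for 49.7% of all genes tested (17.5% had both above). On the log2(FPKM + 1) scale the change was -1.61 (SE 0.30, 95% interval -2.36 to -0.87), or -1.26 after the median over the tested genes is subtracted. The unadjusted p in limma was 0.00192 and the adjusted p (Benjamini-Hochberg over 7588 genes) was 0.10, which misses the threshold of 0.05. By adjusted p and a fold change over 2, 2 of the 7588 genes were called (0.0264%), and AXL was not one of them. By unadjusted p under 0.05 and the same fold change, 19.2% of all genes tested were called, 14.5% lower, AXL among them, and 4.67% higher. A log2 fold change below that of AXL was found for 225 genes, 2.96% of those tested. AXL lies in bin 4 of the 5 by GC content, counted from the lowest, where the median log2 fold change was 0.02. With the GC trend removed AXL changed by -1.75. With libraries rescaled by size factors the change was -1.19. AXL overlaps no other expressed gene.

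**Figure D2:**
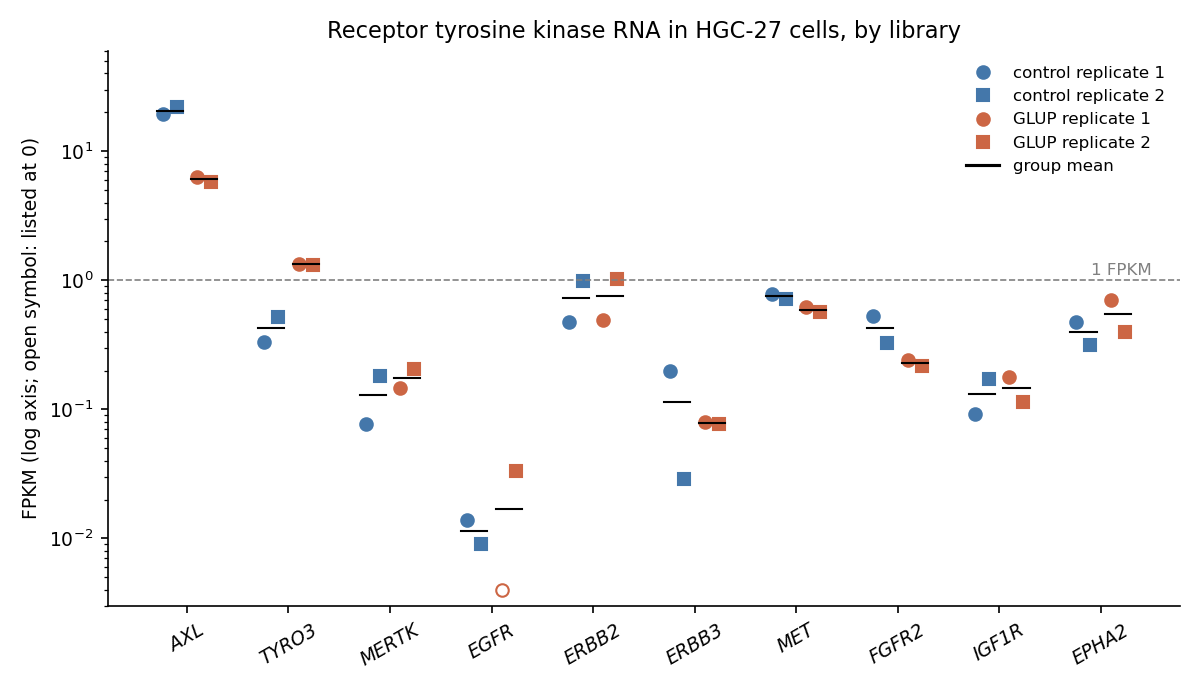
FPKM (y axis, log scale) of the 10 receptors (x axis) in each library, with controls in blue, GLUP in orange, circles for replicate 1, squares for replicate 2, a black bar for each group mean and an open symbol for a value listed at 0. The AXL points stand above all others and separate by group, the TYRO3 points separate in the opposite direction, and the dashed line marks 1 FPKM.

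Among the other TAM receptors, TYRO3 was higher with GLUP and MERTK did not separate. TYRO3, at chr15:41849873-41875787 (GRCh37), was at 0.331 and 0.520 FPKM in the controls and at 1.35 and 1.32 FPKM with GLUP. Both GLUP libraries lay above both controls, and the means of 0.425 ± 0.134 FPKM and 1.33 ± 0.0212 FPKM (SD, n = 2) gave a ratio of 3.13. Because the mean was under 1 FPKM, TYRO3 was read from the fit to all 28873 genes above 0 in any library, where the change was 0.71 on the log2(FPKM + 1) scale (SE 0.18, 95% interval 0.23 to 1.20, limma unadjusted p 0.0151, Benjamini-Hochberg adjusted p 0.333). In that fit 3.40% of all genes were higher at an unadjusted p under 0.05, 9.56% were lower, and none passed an adjusted p under 0.05 with a fold change over 2 (1293 genes, 4.48%, by unadjusted p and that fold change). TYRO3 kept its direction when the GC trend was removed (0.71) and with size factors (0.91). Without either GLUP library its unadjusted p was 0.0835 or 0.0779.

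MERTK, which clears dying cells together with its family members, was at 0.0769 and 0.181 FPKM in the controls and at 0.146 and 0.206 FPKM with GLUP. The groups overlapped, and the log2 fold change was 0.06 (95% interval -0.19 to 0.31). MERTK overlaps the processed pseudogene RTRAFP1 on the opposite strand, at 0.643 to 1.63 FPKM, and the counting is not stated to use strand. AXL was 58.2 and 42.2 times TYRO3 in the controls and 4.71 and 4.36 times with GLUP. The log2(FPKM + 1) difference of AXL minus TYRO3 was 3.93 and 3.91 in the controls and 1.65 and 1.54 with GLUP, which do not overlap. AXL and TYRO3 were set side by side because they separated in opposite directions, so this is a description with no test.

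The epidermal growth factor receptor family was at low levels and did not separate by treatment. EGFR was at 0.0139 and 0.00901 FPKM in the controls, and listed at 0 and at 0.0335 FPKM with GLUP. Its log2 fold change was 0.01 (95% interval -0.06 to 0.08), and at these levels a change was not detectable. ERBB2, which has no ligand of its own and pairs with other members, was at 0.477 and 0.981 FPKM in the controls and at 0.492 and 1.02 FPKM with GLUP. In both groups replicate 2 was the higher one, the groups overlapped, and the log2 fold change was 0.02 (SE 0.27, 95% interval -0.71 to 0.76). ERBB2 shares bases on the opposite strand with MIEN1, which was at 69.9 and 38.0 FPKM in the controls and 23.9 and 28.8 FPKM with GLUP, so the ERBB2 value is uncertain. ERBB3, which signals through its partners, was at 0.200 and 0.0286 FPKM in the controls and at 0.0803 and 0.0777 FPKM with GLUP, with a log2 fold change of -0.04 (95% interval -0.29 to 0.21).

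MET and FGFR2 were below the controls in both GLUP libraries, without passing the test. MET was at 0.780 and 0.718 FPKM in the controls and at 0.621 and 0.563 FPKM with GLUP, a ratio of 0.790. The change on the log2(FPKM + 1) scale was -0.14 (95% interval -0.58 to 0.31, limma unadjusted p 0.452). FGFR2 was at 0.525 and 0.329 FPKM in the controls and at 0.240 and 0.215 FPKM with GLUP, a ratio of 0.534. The change was -0.21 (95% interval -0.64 to 0.22, limma unadjusted p 0.243). Size factors turned the direction of MET (0.05), whereas FGFR2 stayed below 0 (-0.10). With the GC trend removed MET was at -0.06 and FGFR2 at -0.16. Centring the libraries on their medians put MET at 0.21 and FGFR2 at 0.13. It shifts every gene alike, so at these low levels the turn says nothing about either gene.

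IGF1R and EPHA2 overlapped between the groups. IGF1R was at 0.0921 and 0.172 FPKM in the controls and at 0.178 and 0.113 FPKM with GLUP, with a log2 fold change of 0.02 (95% interval -0.21 to 0.25). EPHA2 was at 0.474 and 0.317 FPKM in the controls and at 0.704 and 0.398 FPKM with GLUP, with a log2 fold change of 0.15 (95% interval -0.39 to 0.68). Over the 10 receptors, then, AXL, MET and FGFR2 had both GLUP libraries below both controls, TYRO3 had both above, and the other 6 overlapped. Among all genes above 0 in any library 26.5% had both GLUP libraries below both controls and 13.2% had both above. The median log2 fold change of the 9 receptors other than AXL was 0.02, beside -0.02 over all genes above 0, and 3 of the 9 were below 0, beside 57.5% of those genes. The summed FPKM of these 9 was 2.97 and 3.26 in the controls and 3.81 and 3.94 with GLUP. Without TYRO3 the other 8 summed to 2.64 and 2.74 FPKM in the controls and to 2.46 and 2.63 FPKM with GLUP, so the higher sum with GLUP rests on TYRO3. At these levels a joint lowering of the other receptors was not detectable. The intervals above are for FPKM + 1, a scale that shrinks changes of genes far below 1 FPKM. They therefore do not bound the fold change of the RNA itself. With a pseudocount of 0.1 the log2 fold changes of these 9 ran from -0.66 (FGFR2) to 1.47 (TYRO3).

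**Figure D3:**
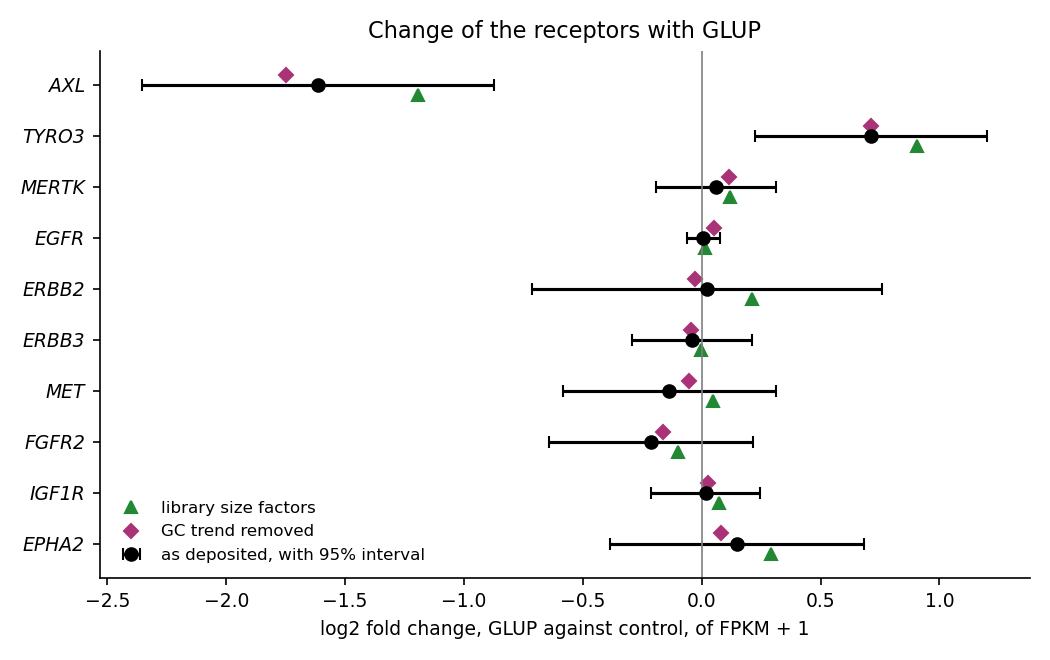
Log2 fold change of FPKM + 1, GLUP against control (x axis), of the 10 receptors (y axis), with the value as deposited and its 95% interval in black, with libraries rescaled by size factors as triangles and with the GC trend removed as diamonds. AXL lies between -1.75 and -1.19 by all 3, TYRO3 lies above 0 by all 3, and the intervals of the other 8 receptors span 0.

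Among the other 48 receptor tyrosine kinases, 3 reached a mean of 1 FPKM. None of the 3 passed by unadjusted p and fold change, beside 19.2% of all genes tested. DDR2 was at 6.05 and 5.77 FPKM in the controls and at 3.86 and 3.73 FPKM with GLUP. These groups do not overlap, and the log2 fold change was -0.53 (SE 0.27, limma unadjusted p 0.103), but it was 0.13 with the GC trend removed. INSR was at 0.987 and 4.99 FPKM in the controls and at 0.589 and 0.559 FPKM with GLUP. Its log2 fold change of -1.13 (SE 0.52, limma unadjusted p 0.0738) was -0.34 without control 2, the library with the high value. ROR2 overlapped, with a log2 fold change of -0.04. Of the 40 receptors of this list above 0 in any library, 9 had both GLUP libraries below the controls, 7 had both above and 24 overlapped, beside 26.5% below and 13.2% above among all genes above 0. At an unadjusted p under 0.05 in the fit to all genes above 0, EPHA6 was lower (0.239 and 0.121 FPKM against 0 and 0) and the catalytically inactive WNT co-receptor PTK7 was higher (0.366 and 0.132 FPKM against 1.10 and 0.828 FPKM), neither with a fold change over 2 on this scale. Among all genes above 0, 9.56% were lower and 3.40% higher at that p. EPHA6 and PTK7 were named after their values were seen.

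The ligands were mostly at low levels. Of 43 ligand genes, 12 were at 0 in all libraries and 4 were tested, of which 2 were lower by unadjusted p and fold change, EFNA5 and NRG4, and none was higher, beside 14.5% lower and 4.67% higher over all genes tested. The TAM ligand GAS6 was at 0.0886 and 0.105 FPKM in the controls and at 0.363 and 0.341 FPKM with GLUP. Both GLUP values lay above both controls, with a log2 fold change of 0.30 (limma unadjusted p 0.0463 in the fit to all genes above 0, Benjamini-Hochberg adjusted p 0.379). Protein S (PROS1) overlapped, at 0.499 and 0.186 FPKM in the controls and 0.542 and 0.191 FPKM with GLUP. NRG4, a ligand of ERBB4, was at 5.89 and 3.14 FPKM in the controls and at 0.657 and 0.629 FPKM with GLUP. It was tested only through its level in the controls, since both GLUP values were under 1 FPKM. Its log2 fold change was -1.70 (SE 0.32, limma unadjusted p 0.00213, Benjamini-Hochberg adjusted p 0.10), and -0.91 with the GC trend removed. NRG4 overlaps FBXO22 on the opposite strand, at 3.04 to 7.90 FPKM. EFNA5, an ephrin that binds EPH receptors, changed by -1.25 on the log2 scale (limma unadjusted p 0.0496) and was at 11.2 FPKM in control 2 against 3.48 FPKM in control 1. Without control 2 it changed by -0.53 and was not called, which leaves 1 lower ligand. EFNA1, a ligand of EPHA2, was at 16.8 and 3.62 FPKM in the controls and at 13.8 and 12.8 FPKM with GLUP, so the groups overlapped. EFNA4 had a log2 fold change of 0.85 (limma unadjusted p 0.114). With the GC trend removed no tested ligand was called.

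Adaptors and core kinases carry the signal from the receptors to ERK and AKT. Of 29 such genes 13 were tested, 2 were higher by unadjusted p and fold change and none was lower, beside 4.67% higher and 14.5% lower over all genes tested. With the GC trend removed 1 was higher (MAP2K2) and 1 lower (HRAS, at -1.10). Their median log2 fold change was -0.02 beside -0.36 over all genes tested. MAP2K2, the kinase MEK2 that phosphorylates ERK, was at 3.27 and 0.658 FPKM in the controls and at 14.2 and 9.80 FPKM with GLUP. The log2 fold change of MAP2K2 was 2.27 (SE 0.51, limma unadjusted p 0.00456, Benjamini-Hochberg adjusted p 0.10), and 1.79 with the GC trend removed. AKT1, the kinase downstream of PI3-kinase, was at 2.17 and 0.480 FPKM in the controls and at 4.01 and 3.20 FPKM with GLUP, a log2 fold change of 1.08 (limma unadjusted p 0.0406). It was 0.55 with the GC trend removed. For both genes control 2 was the lowest library, and without it MAP2K2 changed by 1.58 and AKT1 by 0.53, and 1 gene of the list was called higher. HRAS and the adaptor CRK had log2 fold changes of -0.55 and -0.59 (limma unadjusted p 0.120 and 0.0731), and that of CRK was -0.12 with the GC trend removed.

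Genes that shed, dephosphorylate or sort receptors for breakdown had a median log2 fold change of -0.78, beside -0.36 over all genes tested. Of 25 genes on this list 11 were tested, 4 were lower by unadjusted p and fold change (ADAM17, STAM2, USP8 and TSG101) and 1 was higher (HGS), beside 14.5% lower and 4.67% higher over all genes tested. STAM2 was tested only through its level in the controls (GLUP mean 0.31 FPKM). HGS was tested through its level with GLUP (control mean 0.871 FPKM). Of the 11 log2 fold changes 10 were below 0, beside 66.7% of all genes tested. The median GC content of the tested members was 40.5%, and with the GC trend removed the median was -0.14 and 1 gene was still called lower. ADAM17, the protease that sheds growth factors and receptors, AXL among them, was at 9.67 and 34.6 FPKM in the controls and at 2.20 and 2.50 FPKM with GLUP. ADAM17 changed by -2.54 on the log2 scale (SE 0.59, limma unadjusted p 0.00529, Benjamini-Hochberg adjusted p 0.10), -1.78 with the GC trend removed and -1.67 without control 2. STAM2, TSG101 and HGS belong to the ESCRT machinery that sorts receptors to the lysosome. STAM2 was at 2.09 and 2.93 FPKM in the controls and at 0.333 and 0.290 FPKM with GLUP, a log2 fold change of -1.41 (limma Benjamini-Hochberg adjusted p 0.10) that was -0.56 with the GC trend removed. TSG101 was at 53.3 and 43.9 FPKM in the controls and at 22.7 and 23.2 FPKM with GLUP, a log2 fold change of -1.04 that was -0.52 with the GC trend removed. HGS was at 1.42 and 0.323 FPKM in the controls and at 3.59 and 2.44 FPKM with GLUP, with a log2 fold change of 1.15 that was 0.72 without control 2, and it overlaps ARL16 on the opposite strand, at 19.4 to 33.1 FPKM. USP8, a deubiquitinase that acts on internalised receptors and was named after its values were seen, changed by -1.14 on the log2 scale (limma unadjusted p 0.0146). The tyrosine phosphatase PTPN2 changed by -0.71 (limma unadjusted p 0.0797). With the GC trend removed USP8 changed by -0.44 and PTPN2 by 0.003.

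**Figure D4:**
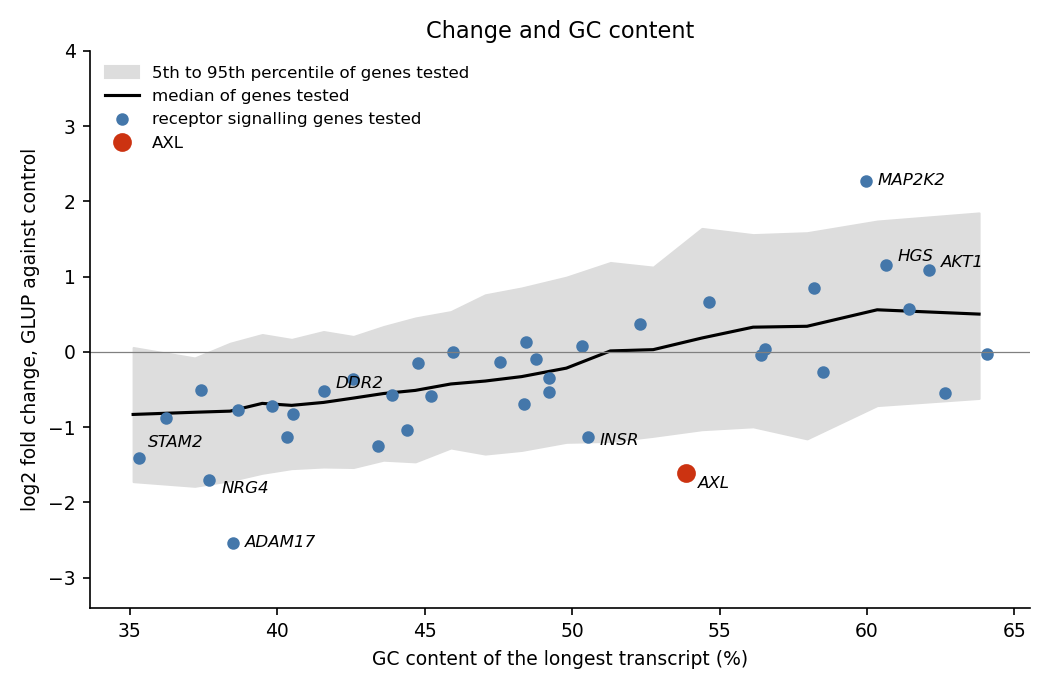
Log2 fold change, GLUP against control (y axis), against the GC content of the longest transcript in percent (x axis), with the median (line) and the 5th to 95th percentile (band) of the genes tested in bins of GC content, the tested receptor signalling genes in blue and AXL in red. The line climbs with GC content, STAM2 and NRG4 lie toward the low-GC side where most genes are below 0, and AXL lies below the band.

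Genes that respond to ERK signalling showed no call. Of 16 such genes 6 were tested and none passed by unadjusted p and fold change in limma, beside 19.2% of all genes tested. By adjusted p 0 passed, beside 0.0264% of all genes tested. Both GLUP libraries lay below both controls for 2 of the 6, beside 49.7% of all genes tested. The median log2 fold change was -0.18, beside -0.36 over all genes tested. MYC, the growth regulator, was at 8.88 and 7.15 FPKM in the controls and at 8.63 and 6.38 FPKM with GLUP, a log2 fold change of -0.09. The cyclin gene CCND1 overlapped as well (0.08). ETV5, a transcription factor induced by fibroblast growth factor signalling, was at 2.93 and 5.17 FPKM in the controls and at 2.70 and 1.49 FPKM with GLUP, with a log2 fold change of -0.70 (limma unadjusted p 0.103). EMP1 was at 1.46 and 1.53 FPKM against 0.961 and 0.928 FPKM, a log2 fold change of -0.36 (limma unadjusted p 0.161) that was 0.26 with the GC trend removed.

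**Figure D5:**
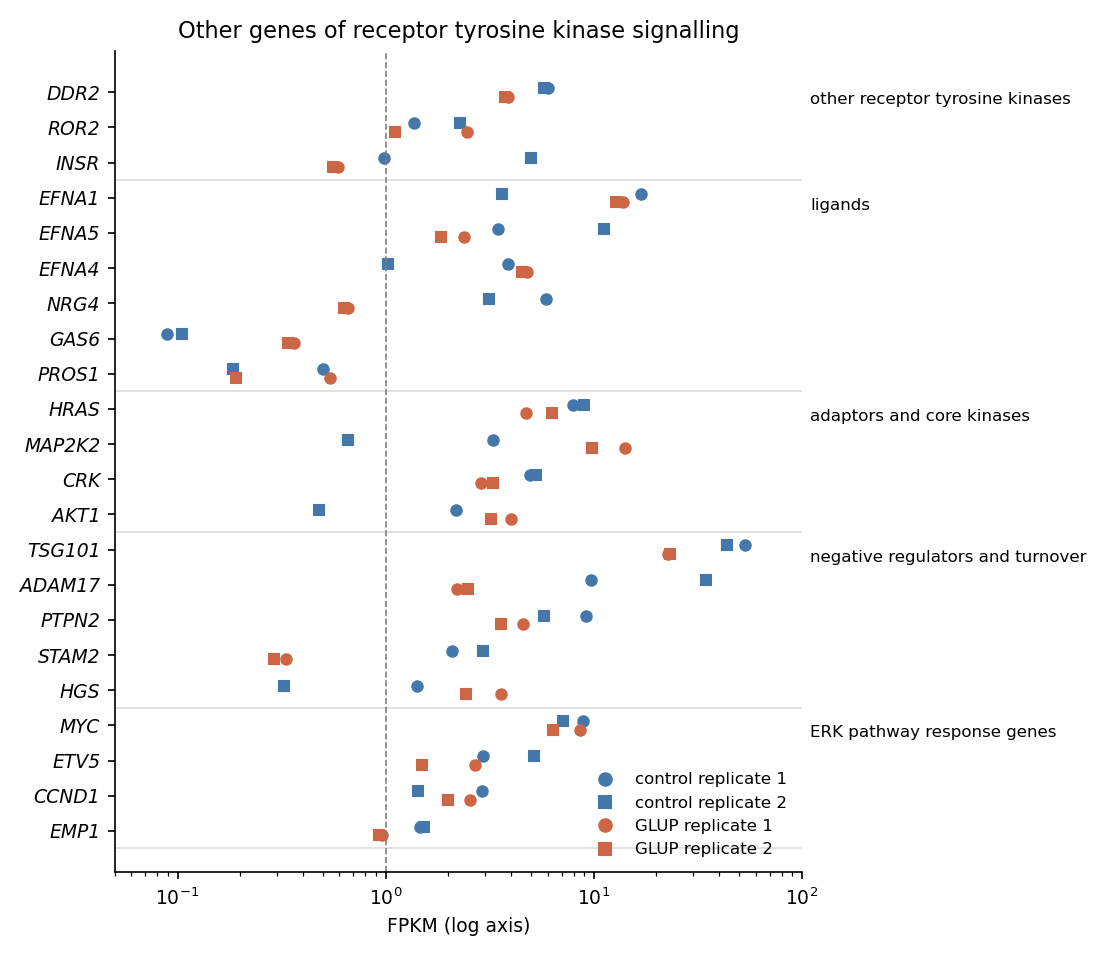
FPKM (x axis, log scale) of the named genes of receptor signalling (y axis, grouped by list) in each library, with controls in blue, GLUP in orange, circles for replicate 1 and squares for replicate 2. NRG4, ADAM17, STAM2 and TSG101 show the GLUP points to the left of both controls, MAP2K2 and HGS to the right, and the MYC and CCND1 points overlap.

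The genes whose profile over the 4 libraries was most like that of AXL were found by the Euclidean distance of their centred log2(FPKM + 1) values, as a description. Among the 7588 genes tested they were METTL18 (distance 0.0583), GPNMB (0.0647), CDC23 (0.0675), PTS (0.0737) and ARL14EP (0.0781). GPNMB, a membrane glycoprotein, was at 77.8 and 83.4 FPKM in the controls and at 26.2 and 24.8 FPKM with GLUP. CDC23, a subunit of the anaphase-promoting complex, was at 11.5 and 12.6 FPKM in the controls and at 3.25 and 3.01 FPKM with GLUP. Their log2 fold changes as deposited lay between -1.66 and -1.56, close to the -1.61 of AXL, since the distance selects for that. With the GC trend removed they were -0.86 for METTL18, -1.13 for GPNMB, -1.06 for CDC23, -0.97 for PTS and -0.66 for ARL14EP, all nearer 0 than the -1.75 of AXL. The 5 genes had GC contents of 32.7% to 44.9%, below the 53.8% of AXL.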

How the data were processed

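RNA of 4 HGC-27 libraries (2 GLUP, 2 control) was sequenced, and the authors deposited FPKM values, one row per gene. Per the submitters' processing notes HISAT2, Cufflinks and RSEM were used with GRCh38.p10, in roles and versions not given in the sources used here. The row identifiers have the form of GENCODE lifted to GRCh37. The 62492 rows held 49 second copies of pseudoautosomal genes, which were summed to 62443 genes, and 99.55% of the identifiers matched a name of GENCODE v44 lifted to GRCh37, the source of positions, GC content and overlaps. Library depth is not in the table. FPKM multiplied by transcript length piled up at a commonest value in 58 to 73 of 5937 to 6574 single-transcript genes per library, and most genes did not fall on multiples of it, so whole reads were not recovered and no counting interval is given.

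Values were analysed as log2(FPKM + 1). The main test took the 7588 genes that averaged 1 FPKM or more and used limma 3.58.1 under R 4.3.3 (lmFit, eBayes with a mean-variance trend, two-sided, Benjamini-Hochberg adjustment over all genes tested). That mean was over all 4 libraries, so a gene under 1 FPKM in 1 group could be tested through its level in the other. Receptors under that mean were read from the same fit to all 28873 genes above 0 in any library. The call rules were an adjusted or an unadjusted p under 0.05, each with a fold change over 2 on that scale. For GC removal, a lowess curve (span 0.3) of each library's departures from gene means along GC content was subtracted. The script was tested on simulated data. Promoter motifs were searched on both strands in the 250 bases before each RefSeq start (Python 3.11.15, pandas 2.3.3).

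The receptors, the gene lists and the alternatives were chosen with earlier results of these data known. The genes named were the 10 receptors, GAS6, PROS1, the 3 highest genes of each list by mean FPKM, up to 3 tested genes of each list with the largest change among those whose groups did not overlap, and the 5 genes nearest to AXL, beside EPHA6, PTK7 and USP8. A gene that this rule would name is not reported here. No set test was made. The alternatives were a pseudocount of 0.1, centring on medians, size factors (added after seeing the data), quantile normalization, GC removal, the replicate number as a block, both together, no trend, all genes above 0, a mean of at least 5 FPKM, a fold change of 1.5 and leaving out each library.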

Additional observations from a re-analysis of the deposited data

How the results depend on the processing

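AXL kept its direction and an unadjusted p under 0.05 with a fold change over 2 under all 14 alternatives run, from -1.75 to -1.19 on the log2 scale, with limma adjusted p from 0.00412 (without control 1) to 0.579 (without GLUP 1), so the adjusted call depends on the libraries used. Among receptors with a mean of at least 1 FPKM the number called was 1 throughout, which leaves TYRO3 out. In the fit to all genes above 0 TYRO3 also passed the rule with a pseudocount of 0.1 (1.47) and after centring (1.06). Centring shifted every gene alike, so the second of these is not added evidence. After it EGFR, near 0 FPKM, stood at 0.35 (limma unadjusted p 0.0004). MERTK, ERBB3, IGF1R and EPHA2 then also had a limma unadjusted p under 0.05. Genes called by adjusted p were 2, and 1 with a pseudocount of 0.1, centring or quantile normalization, 0 with GC removal, no trend, a mean of at least 5 FPKM or all genes above 0, 16 with GC removal and the replicate block together, and 4 (without either GLUP library) to 2710 (without control 1, and 1020 without control 2) with 1 library left out. Where the count was 0, the unadjusted rule still called 700 genes with GC removal, 890 at a mean of at least 5 FPKM and 1293 among all genes above 0. By unadjusted p 1457 genes were called, against 834 with GC removal and the replicate block, 2401 at a fold change of 1.5 and 587 to 2729 with 1 library left out. Lower calls made up 75.7% of these, 35.0% after centring, 32.1% with size factors and 49.3% with GC removal. Of the listed signalling genes 9 were called, against 3 with GC removal, 4 with the block added, 3 at a mean of at least 5 FPKM and 5 to 13 with 1 library left out. Directions of receptors near 0 turned. ERBB2 was -0.0279 with GC removal, with or without the block. After centring, which adds a constant to each library, ERBB3 was 0.30, MET 0.21 and FGFR2 0.13, and with size factors MET was 0.0477. With 1 library left out MERTK ran from -0.0065 to 0.126, EGFR from -0.0164 to 0.0312, ERBB2 from -0.197 to 0.240, ERBB3 from -0.153 to 0.0690 and IGF1R from -0.0337 to 0.0687. The cause of these changes was not tested. TYRO3 stayed above 0, from 0.62 to 1.47, and lost its unadjusted p under 0.05 without either GLUP library. The replicate numbers are shared between the groups with no stated pairing. The difference of control 1 minus control 2 correlated with that of GLUP 1 minus GLUP 2 at r = 0.126 across the 7588 genes tested, which are not independent. With the replicate block 2 genes were called by adjusted p and 1688 by unadjusted p, with AXL at -1.61. Where 1 library was left in a group, it was assumed to vary like the other group. FPKM without depth limits what can be said of receptors under 1 FPKM.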
